A study of Mus musculus with 63 samples.

Results

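Large peritoneal macrophages are the long-lived resident macrophages of the abdominal cavity, and 10 genes that mark them were followed through every library of an RNA sequencing study of mouse peritoneal macrophages. The set was given by symbol and comprises Gata6, Timd4, Icam2, Selp, Alox15, Serpinb2, Slpi, F5, Prg4 and Fcna. All 10 were found, of 56748 genes in the count table, and all 10 passed the filter on low counts that left 22147 genes for testing.

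The study compared mice that carry the R1441C change in their own Lrrk2 gene (knock-in) with wild-type B6 mice, and its design text asks how the change affects macrophage functions by sex and age. Macrophages were drawn 72 h after an intraperitoneal injection of 3% thioglycollate broth, an irritant that recruits monocyte-derived macrophages, so every group shares this elicitation. The cells adhered to plastic and received interferon-gamma (IFN-γ, 100 U) or water for 18 h. Animals labelled old were 18 to 21 months of age and those labelled young 2 to 3 months.

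The labels form 16 groups of 63 libraries. With IFN-γ there were 5 knock-in and 5 wild-type libraries of old females, 2 and 3 of young females, 5 and 5 of old males, and 3 and 5 of young males, knock-in before wild-type each time. Untreated, there were 5 and 5 of old females, 5 and 3 of young females, 3 and 3 of old males, and 3 and 3 of young males. Old, young, IFN-γ and untreated stand below for what the labels say of a library. The labels do not say whether replicates came from separate animals, so p-values measure only the spread between these libraries, which may be technical.

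Several properties of the libraries touch the results. Libraries held 73.6 to 106.6 M counts (median 98.2 M). The summed level of 10 general macrophage markers was 19250.0 to 34380.0 CPM (counts scaled to library size) in old and 24300.0 to 39150.0 CPM in young libraries, so macrophage transcripts were abundant throughout. Genes induced by IFN-γ followed the age label and not the treatment label: Gbp2, whose protein is a GTPase of host defence, covered 4371 to 7509 CPM in old and 13.5 to 882.7 CPM in young libraries. By treatment label Gbp2 covered 16.7 to 6663 CPM in IFN-γ libraries and 13.5 to 7509 CPM in untreated ones. B cell transcripts were higher with the IFN-γ label, with some overlap: 12 B cell markers summed to 187 to 3114 CPM in IFN-γ libraries and 123 to 233 CPM in untreated ones. What the age and treatment labels stand for in these cultures therefore could not be settled from the counts. For knock-in old untreated males the title says untreated and another label field names IFN-γ. The base change itself is not visible in counts, and Lrrk2 covered 23.4 to 269.2 CPM in knock-in and 24.3 to 226.2 CPM in wild-type libraries.

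The summed level of the set was far higher in 2 libraries than in any other, wild-type old IFN-γ female 2 and wild-type young IFN-γ female 1. Their 10 members summed to 4561 and 5077 CPM, against 503.7 CPM or less in each of the other 61. In the first, 6 of 10 members lay at least 4-fold above the median of the rest of the group, against 1.97% of 12561 genes at 1 CPM or more. In the second 8 of 10 members did so, against 2.25% of 12730 genes. Because the members' own levels singled out these 2 libraries, such shares describe them and test nothing. The same libraries had the highest B cell sums, 2210.0 and 3114 CPM, and the highest mast cell sums, 79.7 and 127 CPM. The lowest member sums were those of knock-in old IFN-γ females 4 and 5, 80.7 and 81.6 CPM, and their Xist, the transcript of the inactive X chromosome, was at 1.69 and 1.55 CPM. All other females had Xist at 120.1 CPM or more. Ddx3y, a gene of the Y chromosome, was at 0.624 and 0.601 CPM in knock-in old IFN-γ females 4 and 5. In males it covered 33.92 to 67.89 CPM and in all females 0 to 8.93 CPM (median 0.311). The highest females were wild-type young IFN-γ females 5 and 1, at 8.93 and 5.89 CPM. Female 1 of that group is 1 of the 2 libraries of highest member level. Xist in males covered 0 to 14.7 CPM (median 0.367). Some libraries of a group were also close: 17 of 102 pairs within a group were closer to each other than any pair from different groups. They are called near-identical below, although even the closest pair differed by 3.38 times the sampling noise. Single genes could differ widely within such a pair, as Gbp2 at 24.3 and 235 CPM in knock-in young IFN-γ females 1 and 2. Whether they are repeats of 1 sample was not tested. Counts of members called are therefore also given without the 2 libraries of highest level, and with near-identical libraries joined into 46. Leaving out those 2 selects libraries by the members' own levels, so p-values of such fits are descriptions.

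Large peritoneal macrophages depend on the transcription factor GATA6, which retinoic acid from the omentum and the mesothelium sustains, and on it rests much of their distinctive gene set. They take up dying cells and wall off injury, and after an inflammatory stimulus they adhere, clot and largely disappear from lavage fluid while monocyte-derived cells fill the cavity. The 10 genes cover these roles: a transcription factor (Gata6), receptors and adhesion molecules (Timd4, Icam2, Selp), a lipid-oxidising enzyme (Alox15), inhibitors of proteases (Serpinb2, Slpi), a clotting factor (F5), a lubricant of serous surfaces (Prg4) and a lectin of the complement system (Fcna).

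Promoters of 6 members, with 7 start sites, were matched by symbol in the RefSeq table of GRCm38.p6, each covering 250 bases before and 50 after a start. The 3 shown belong to the member with the largest decrease in old libraries, the member called between the genotypes and the member that was higher in old libraries. Capitals mark GATAA, the core of the site that GATA factors bind, and TTCNNNGAA, the core of the site that STAT factors bind, both searched on both strands. The stretch for Serpinb2 is its downstream start, chr1:107511260-107511559 on the plus strand, that for Slpi is chr2:164356458-164356757 on the minus strand and that for Timd4 is chr11:46810549-46810848 on the plus strand.
Serpinb2: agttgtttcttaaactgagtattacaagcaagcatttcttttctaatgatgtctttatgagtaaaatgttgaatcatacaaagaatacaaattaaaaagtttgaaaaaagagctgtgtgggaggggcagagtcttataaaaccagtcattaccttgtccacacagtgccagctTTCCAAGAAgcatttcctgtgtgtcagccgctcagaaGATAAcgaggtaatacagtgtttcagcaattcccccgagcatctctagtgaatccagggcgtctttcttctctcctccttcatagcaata
Slpi: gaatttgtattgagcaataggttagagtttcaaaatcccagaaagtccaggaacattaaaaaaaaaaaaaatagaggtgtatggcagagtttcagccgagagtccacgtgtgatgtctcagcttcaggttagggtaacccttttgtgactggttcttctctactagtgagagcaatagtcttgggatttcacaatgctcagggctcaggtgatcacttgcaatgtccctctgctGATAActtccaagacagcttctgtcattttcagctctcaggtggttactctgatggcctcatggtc
Timd4: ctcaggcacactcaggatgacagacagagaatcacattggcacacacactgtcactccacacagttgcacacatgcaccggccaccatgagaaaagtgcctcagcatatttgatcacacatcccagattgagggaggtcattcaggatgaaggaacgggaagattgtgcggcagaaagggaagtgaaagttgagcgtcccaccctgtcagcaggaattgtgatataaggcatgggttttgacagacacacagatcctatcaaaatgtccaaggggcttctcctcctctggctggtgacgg
Serpinb2 held GATAA at -40 and TTCNNNGAA at -77 relative to the downstream start, and Slpi held GATAA at -16. The stretch of the upstream start of Serpinb2, not shown, held the same TTCNNNGAA at 11 and no GATAA. Timd4 held neither, nor the core of the interferon-stimulated response element, a pair of GAAA separated by 2 bases. The stretches for F5, Fcna and Selp held none of the 3 either. Other forms of GATA sites were not searched. Among 32544 promoters of 300 bases, 25.3% held GATAA, 8.33% held TTCNNNGAA and 3.45% held that pair, and a match of letters is no evidence of binding.

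Per unit of transcript length, Slpi was the most abundant member and Gata6 the least. By the authors' FPKM (fragments scaled to transcript length and depth) the median over 63 libraries was 88.9 for Slpi, 18.2 for Fcna, 15.5 for Prg4, 4.47 for Icam2 and 4.40 for Timd4. Alox15 followed at 3.21, Serpinb2 at 1.14, F5 at 0.720, Selp at 0.691 and Gata6 at 0.537. Icam2 and Timd4 stood next to each other in this order but differed in spread, with 2.97 to 17.2 FPKM for Icam2 and 0.142 to 194 FPKM for Timd4 over the 63 libraries. F5 and Selp, which are neighbouring genes on chromosome 1, had overlapping ranges of 0.177 to 38.8 and 0.169 to 13.03 FPKM. Low levels were still well counted: Gata6 had 115 to 3946 reads and Timd4 31 to 42132 reads a library. In bulk RNA, fewer resident cells and less RNA per cell cannot be told apart.

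**Figure D1:**
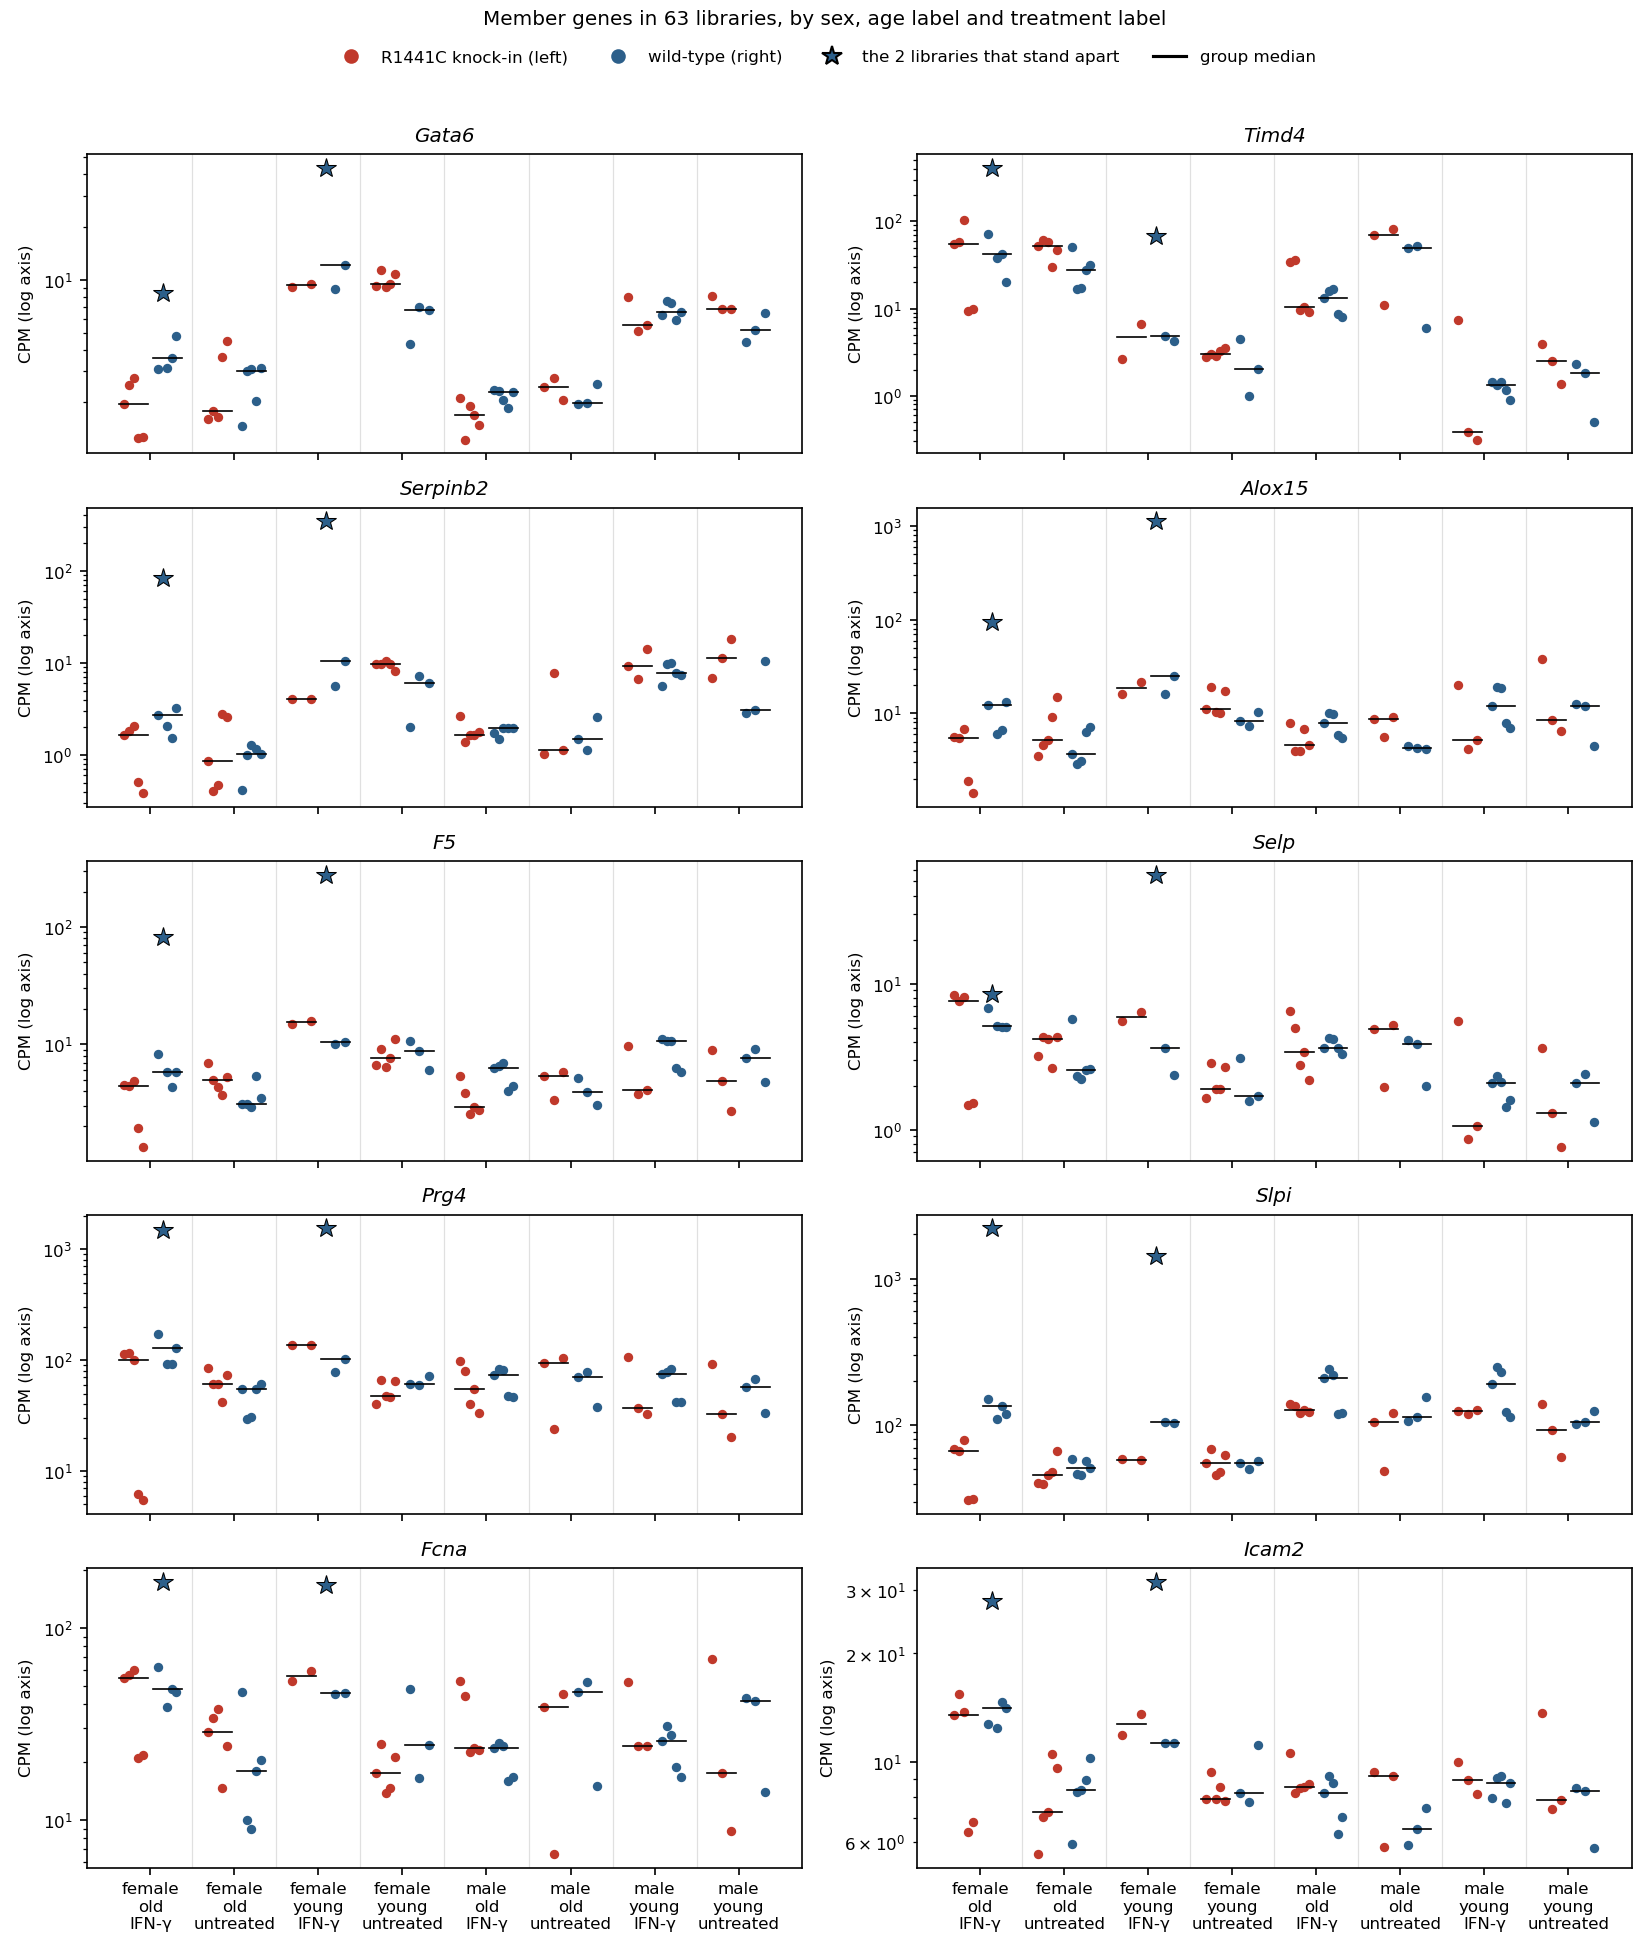
Level of each of the 10 genes in every library, in CPM on a log axis, by sex, age label and treatment label, with knock-in libraries left of wild-type ones; bars are medians and stars mark the 2 wild-type IFN-γ female libraries that stand apart. Gata6 is lower and Timd4 higher in old strata, and the stars lie above the rest of their groups for nearly every gene.

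Levels below are CPM in each library, in the order of the library numbers in the labels; changes are log2 fold changes ± SE with adjusted p-values from edgeR's quasi-likelihood test, called at 0.05. Where groups are said below not to overlap, the share of all genes that separate in the same way was not counted. Gata6 (ENSMUSG00000005836) encodes the zinc-finger factor that defines the resident cells. In old IFN-γ females, Gata6 was at 1.96, 2.52, 2.75, 1.26 and 1.26 CPM in knock-in and 3.09, 8.38, 3.15, 3.56 and 4.81 CPM in wild-type libraries. Gata6 in old untreated females stood at 1.603, 1.796, 1.66, 3.61 and 4.499 CPM in knock-in libraries, against 1.47, 3.01, 3.11, 2.03 and 3.14 CPM in wild-type libraries. Every old female library but wild-type IFN-γ female 2 lay below 5 CPM. The knock-in young IFN-γ females had 9.11 and 9.504 CPM of Gata6, and the wild-type ones had 43.5, 8.83 and 12.2 CPM. Among young untreated females, knock-in libraries held 9.197, 11.4, 9.12, 9.46 and 10.8 CPM of Gata6 and wild-type libraries 4.303, 6.97 and 6.75 CPM. Young females held more, and untreated knock-in libraries all lay above untreated wild-type ones. Levels of Gata6 for old IFN-γ males were 2.13, 1.22, 1.9, 1.69 and 1.48 CPM with the knock-in and 2.34, 2.33, 2.06, 1.85 and 2.29 CPM in wild-type. In old untreated males, Gata6 was at 2.45, 2.76 and 2.06 CPM in knock-in and 1.97, 1.97 and 2.54 CPM in wild-type libraries. Old males lay between 1.22 and 2.76 CPM with little spread. Gata6 in young IFN-γ males stood at 8.003, 5.13 and 5.54 CPM in knock-in libraries, against 6.34, 7.54, 7.33, 5.91 and 6.57 CPM in wild-type libraries. The knock-in young untreated males had 8.13, 6.805 and 6.83 CPM of Gata6, and the wild-type ones had 4.41, 5.18 and 6.51 CPM. In each of the 8 combinations of genotype, sex and treatment every old library lay below every young one. The knock-in lay wholly above wild-type in young untreated females and young untreated males, and wholly below it in old IFN-γ females.

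Timd4 (ENSMUSG00000055546) encodes TIM-4, a receptor for phosphatidylserine by which resident macrophages bind dying cells. Levels of Timd4 for old IFN-γ females were 55.1, 57.6, 103, 9.39 and 9.98 CPM with the knock-in and 72.4, 410.3, 38.01, 41.8 and 20 CPM in wild-type. In old untreated females, Timd4 was at 51.9, 60.8, 58.2, 30.3 and 47.5 CPM in knock-in and 51.02, 16.8, 17.1, 27.6 and 31.9 CPM in wild-type libraries. Among old females only knock-in IFN-γ libraries 4 and 5 were below 10 CPM. Timd4 in young IFN-γ females stood at 2.65 and 6.698 CPM in knock-in libraries, against 67.4, 4.801 and 4.25 CPM in wild-type libraries. The knock-in young untreated females had 2.77, 3.04, 2.86, 3.27 and 3.52 CPM of Timd4, and the wild-type ones had 4.43, 0.991 and 2.03 CPM. All young females but wild-type IFN-γ female 1 stayed below 7 CPM. Among old IFN-γ males, knock-in libraries held 33.7, 36.1, 9.73, 10.5 and 9.11 CPM of Timd4 and wild-type libraries 13.1, 16.1, 16.7, 8.63 and 7.99 CPM. Levels of Timd4 for old untreated males were 69.04, 10.9 and 82.7 CPM with the knock-in and 49.1, 52.5 and 5.99 CPM in wild-type. Old males divided within groups, as the untreated wild-type libraries show, with 2 near 50 CPM and 1 near 6 CPM. In young IFN-γ males, Timd4 was at 7.34, 0.381 and 0.312 CPM in knock-in and 1.44, 1.33, 1.42, 1.16 and 0.891 CPM in wild-type libraries. Timd4 in young untreated males stood at 3.92, 2.52 and 1.36 CPM in knock-in libraries, against 2.29, 1.83 and 0.5005 CPM in wild-type libraries. Young males included the lowest libraries of the study, with knock-in IFN-γ libraries 3 and 4 below 0.4 CPM and library 2 of the same group far above them.

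Icam2 (ENSMUSG00000001029) encodes a ligand of leukocyte integrins and is a standard surface marker of the large cells. Among old IFN-γ females, knock-in libraries held 13.5, 15.4, 13.8, 6.397 and 6.81 CPM of Icam2 and wild-type libraries 12.8, 27.97, 12.4, 14.7 and 14.1 CPM. Levels of Icam2 for old untreated females were 5.57, 7.06, 7.28, 10.5 and 9.65 CPM with the knock-in and 5.93, 8.25, 8.38, 8.92 and 10.2 CPM in wild-type. Apart from knock-in libraries 4 and 5, IFN-γ libraries of old females lay above the untreated ones. In young IFN-γ females, Icam2 was at 11.9 and 13.6 CPM in knock-in and 31.6, 11.3 and 11.3 CPM in wild-type libraries. Icam2 in young untreated females stood at 7.92, 9.42, 7.89, 8.54 and 7.83 CPM in knock-in libraries, against 8.24, 7.78 and 11.2 CPM in wild-type libraries. Young IFN-γ females all lay above their untreated knock-in counterparts. The knock-in old IFN-γ males had 10.6, 8.21, 8.51, 8.52 and 8.701 CPM of Icam2, and the wild-type ones had 8.22, 9.16, 8.76, 6.32 and 7.04 CPM. Among old untreated males, knock-in libraries held 9.37, 5.82 and 9.17 CPM of Icam2 and wild-type libraries 5.91, 6.54 and 7.49 CPM. Old males showed no such division. Levels of Icam2 for young IFN-γ males were 9.999, 8.95 and 8.18 CPM with the knock-in and 7.95, 9.06, 9.17, 7.72 and 8.74 CPM in wild-type. In young untreated males, Icam2 was at 13.7, 7.42 and 7.88 CPM in knock-in and 8.46, 8.33 and 5.79 CPM in wild-type libraries. Icam2 was the least variable member, with its highest library 3.69-fold above its median.

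Selp (ENSMUSG00000026580) encodes P-selectin, which platelets, endothelium and resident peritoneal macrophages of mice carry. The knock-in old IFN-γ females had 8.301, 7.63, 8.06, 1.47 and 1.52 CPM of Selp, and the wild-type ones had 6.78, 8.45, 5.12, 5.08 and 5.06 CPM. Among old untreated females, knock-in libraries held 3.17, 4.29, 4.17, 2.63 and 4.32 CPM of Selp and wild-type libraries 5.69, 2.31, 2.23, 2.55 and 2.59 CPM. Knock-in IFN-γ females 1 to 3 were the highest old libraries next to wild-type IFN-γ female 2, and their group mates 4 and 5 the lowest. Levels of Selp for young IFN-γ females were 5.55 and 6.34 CPM with the knock-in and 55.4, 3.605 and 2.37 CPM in wild-type. In young untreated females, Selp was at 1.66, 2.85, 1.91, 1.91 and 2.696 CPM in knock-in and 3.08, 1.57 and 1.69 CPM in wild-type libraries. Young IFN-γ females with the knock-in both exceeded every untreated knock-in library of that age. Selp in old IFN-γ males stood at 6.48, 4.94, 2.78, 3.37 and 2.197 CPM in knock-in libraries, against 3.63, 4.26, 4.18, 3.62 and 3.304 CPM in wild-type libraries. The knock-in old untreated males had 4.88, 1.95 and 5.24 CPM of Selp, and the wild-type ones had 4.08, 3.84 and 1.98 CPM. Groups of old males overlapped. Among young IFN-γ males, knock-in libraries held 5.57, 0.867 and 1.06 CPM of Selp and wild-type libraries 2.07, 2.33, 2.11, 1.43 and 1.598 CPM. Levels of Selp for young untreated males were 3.61, 1.29 and 0.761 CPM with the knock-in and 2.09, 2.42 and 1.12 CPM in wild-type. Library 2 was the highest of its group in both young knock-in groups of males, as it was for Timd4 and Prg4.

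Alox15 (ENSMUSG00000018924) encodes 12/15-lipoxygenase, which oxidises phospholipids and makes lipid mediators in resident macrophages. Alox15 in old IFN-γ females stood at 5.54, 5.42, 6.78, 1.88 and 1.398 CPM in knock-in libraries, against 12.4, 93.8, 5.99, 6.71 and 13.1 CPM in wild-type libraries. The knock-in old untreated females had 3.53, 4.64, 5.14, 9.17 and 14.9 CPM of Alox15, and the wild-type ones had 3.68, 2.85, 3.101, 6.28 and 7.13 CPM. The highest and lowest old libraries were both IFN-γ females, wild-type 2 and knock-in 5. Among young IFN-γ females, knock-in libraries held 16.2 and 21.6 CPM of Alox15 and wild-type libraries 1123, 16.2 and 25.1 CPM. Levels of Alox15 for young untreated females were 11.02, 19.4, 10.4, 10.2 and 17.3 CPM with the knock-in and 8.28, 7.32 and 10.5 CPM in wild-type. Wild-type IFN-γ female 1 held 54.3-fold the median of the other libraries of its group. In old IFN-γ males, Alox15 was at 7.97, 3.97, 3.99, 6.75 and 4.58 CPM in knock-in and 7.92, 10.1, 9.81, 5.85 and 5.52 CPM in wild-type libraries. Alox15 in old untreated males stood at 8.61, 5.56 and 9.04 CPM in knock-in libraries, against 4.52, 4.28 and 4.15 CPM in wild-type libraries. All old untreated knock-in males lay above all wild-type ones. The knock-in young IFN-γ males had 20.2, 4.19 and 5.17 CPM of Alox15, and the wild-type ones had 12.1, 19.1, 18.7, 7.93 and 6.95 CPM. Among young untreated males, knock-in libraries held 37.8, 8.46 and 6.53 CPM of Alox15 and wild-type libraries 12.6, 12.01 and 4.49 CPM. Knock-in library 2 again lay well above libraries 3 and 4 in both groups of young males.

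Serpinb2 (ENSMUSG00000062345) encodes plasminogen activator inhibitor type 2, a mostly intracellular serpin of activated macrophages. In old IFN-γ females, Serpinb2 was at 1.66, 1.82, 2.07, 0.515 and 0.383 CPM in knock-in and 2.69, 83.1, 2.08, 1.51 and 3.27 CPM in wild-type libraries. Serpinb2 in old untreated females stood at 0.853, 0.41, 0.473, 2.82 and 2.62 CPM in knock-in libraries, against 0.414, 0.9996, 1.27, 1.17 and 1.02 CPM in wild-type libraries. All old females but wild-type IFN-γ female 2 lay below 4 CPM. The knock-in young IFN-γ females had 4.097 and 4.11 CPM of Serpinb2, and the wild-type ones had 344, 5.65 and 10.4 CPM. Among young untreated females, knock-in libraries held 9.74, 9.72, 10.5, 9.72 and 8.14 CPM of Serpinb2 and wild-type libraries 2.01, 7.21 and 6.003 CPM. Young untreated females with the knock-in lay wholly above wild-type, and young IFN-γ ones wholly below it. Levels of Serpinb2 for old IFN-γ males were 2.69, 1.37, 1.64, 1.67 and 1.78 CPM with the knock-in and 1.72, 1.49, 1.99, 1.99 and 1.97 CPM in wild-type. In old untreated males, Serpinb2 was at 1.02, 7.72 and 1.13 CPM in knock-in and 1.497, 1.14 and 2.57 CPM in wild-type libraries. Old males were low apart from 1 untreated knock-in library. Serpinb2 in young IFN-γ males stood at 9.15, 6.704 and 14.3 CPM in knock-in libraries, against 5.68, 9.77, 10.1, 7.84 and 7.44 CPM in wild-type libraries. The knock-in young untreated males had 6.88, 11.2 and 18.1 CPM of Serpinb2, and the wild-type ones had 2.86, 3.06 and 10.4 CPM. In 6 of 8 combinations old libraries lay wholly below young ones.

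Slpi (ENSMUSG00000017002) encodes secretory leukocyte peptidase inhibitor, which blocks elastase and other serine proteases. Levels of Slpi for old IFN-γ females were 68.4, 66.7, 78.8, 30.7 and 31.7 CPM with the knock-in and 149.9, 2195, 111, 136 and 119 CPM in wild-type. In old untreated females, Slpi was at 40.6, 39.7, 45.6, 48.04 and 66.96 CPM in knock-in and 59.2, 46.6, 46.1, 56.9 and 51.5 CPM in wild-type libraries. In old IFN-γ females every knock-in library lay below every wild-type one, and untreated groups overlapped. Slpi in young IFN-γ females stood at 59.1 and 57.7 CPM in knock-in libraries, against 1430.0, 105 and 104 CPM in wild-type libraries. The knock-in young untreated females had 55.5, 69.3, 45.9, 47.7 and 62.2 CPM of Slpi, and the wild-type ones had 55.1, 50.2 and 57.4 CPM. The same held for young females: knock-in below wild-type without overlap with IFN-γ, and overlap without it. Among old IFN-γ males, knock-in libraries held 139.9, 135, 121, 128 and 123 CPM of Slpi and wild-type libraries 209.8, 240.1, 222, 118 and 121 CPM. Levels of Slpi for old untreated males were 105, 49.1 and 122 CPM with the knock-in and 107, 114 and 156 CPM in wild-type. Wild-type IFN-γ males 1 to 3 exceeded every knock-in male, whereas males 4 and 5 did not. In young IFN-γ males, Slpi was at 125, 119.6 and 126 CPM in knock-in and 190.5, 249, 232, 124 and 114 CPM in wild-type libraries. Slpi in young untreated males stood at 139, 92.98 and 60.6 CPM in knock-in libraries, against 102, 106 and 125 CPM in wild-type libraries. Young males showed the same division between libraries 1 to 3 and libraries 4 and 5.

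F5 (ENSMUSG00000026579) encodes coagulation factor V, the cofactor with which factor Xa makes thrombin. Among old IFN-γ females, knock-in libraries held 4.53, 4.44, 4.87, 1.93 and 1.34 CPM of F5 and wild-type libraries 8.31, 82.3, 5.84, 4.34 and 5.77 CPM. Levels of F5 for old untreated females were 6.98, 4.998, 4.33, 3.74 and 5.23 CPM with the knock-in and 3.08, 3.09, 2.94, 5.37 and 3.48 CPM in wild-type. Old IFN-γ females with the knock-in included the lowest libraries of the study. In young IFN-γ females, F5 was at 15.03 and 15.8 CPM in knock-in and 278, 10.2 and 10.6 CPM in wild-type libraries. F5 in young untreated females stood at 6.61, 9.22, 6.36, 7.65 and 11.03 CPM in knock-in libraries, against 10.6, 8.87 and 6.096 CPM in wild-type libraries. Young IFN-γ females exceeded old ones in the knock-in without overlap. The knock-in old IFN-γ males had 5.35, 3.88, 2.57, 2.94 and 2.74 CPM of F5, and the wild-type ones had 6.31, 6.598, 6.94, 3.97 and 4.42 CPM. Among old untreated males, knock-in libraries held 5.404, 3.35 and 5.804 CPM of F5 and wild-type libraries 5.198, 3.94 and 3.03 CPM. Old wild-type IFN-γ males 1 to 3 were the highest old males. Levels of F5 for young IFN-γ males were 9.65, 3.79 and 4.11 CPM with the knock-in and 11.04, 10.7, 10.8, 6.26 and 5.81 CPM in wild-type. In young untreated males, F5 was at 8.92, 4.86 and 2.69 CPM in knock-in and 7.69, 9.15 and 4.81 CPM in wild-type libraries. Males overlapped between the genotypes in every combination of age and treatment.

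Prg4 (ENSMUSG00000006014) encodes proteoglycan 4 or lubricin, a secreted mucin-like lubricant of joints and serous membranes. The knock-in old IFN-γ females had 114, 116, 100.2, 6.17 and 5.43 CPM of Prg4, and the wild-type ones had 173, 1479, 92.6, 91.4 and 127 CPM. Among old untreated females, knock-in libraries held 85.2, 61.04, 60.5, 42.4 and 72.9 CPM of Prg4 and wild-type libraries 54.9, 29.4, 30.4, 55.04 and 60.9 CPM. Knock-in IFN-γ females 4 and 5 were more than 10-fold below the other libraries of their group. Levels of Prg4 for young IFN-γ females were 137 and 138 CPM with the knock-in and 1539, 78.03 and 102 CPM in wild-type. In young untreated females, Prg4 was at 40.4, 65.96, 47.3, 46.1 and 64.96 CPM in knock-in and 61.1, 60.1 and 72.5 CPM in wild-type libraries. Every young IFN-γ female exceeded every untreated one. Prg4 in old IFN-γ males stood at 99.1, 80.3, 40.2, 55.5 and 33.03 CPM in knock-in libraries, against 73.4, 82.5, 80.7, 47.1 and 46.1 CPM in wild-type libraries. The knock-in old untreated males had 93.5, 24.1 and 104 CPM of Prg4, and the wild-type ones had 71.1, 77.6 and 38.2 CPM. Male groups ranged widely inside themselves. Among young IFN-γ males, knock-in libraries held 108, 37.4 and 32.99 CPM of Prg4 and wild-type libraries 74.97, 77.6, 83, 41.7 and 41.5 CPM. Levels of Prg4 for young untreated males were 92.2, 32.7 and 20.3 CPM with the knock-in and 57.6, 68.03 and 33.6 CPM in wild-type. No group of males lay wholly above or below its counterpart of the other genotype.

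Fcna (ENSMUSG00000026938) encodes ficolin A, a lectin that starts the complement cascade on microbial sugars. Fcna in old IFN-γ females stood at 54.99, 56.8, 60.02, 21.02 and 21.8 CPM in knock-in libraries, against 62.6, 173, 38.6, 48.2 and 46.3 CPM in wild-type libraries. The knock-in old untreated females had 28.8, 33.95, 37.8, 14.6 and 24.3 CPM of Fcna, and the wild-type ones had 46.2, 9.92, 8.94, 18.04 and 20.5 CPM. Wild-type IFN-γ libraries of old females, but not all knock-in ones, exceeded most untreated libraries. Among young IFN-γ females, knock-in libraries held 52.7 and 59.8 CPM of Fcna and wild-type libraries 166, 45.4 and 45.8 CPM. Levels of Fcna for young untreated females were 17.6, 24.8, 13.7, 14.6 and 21.1 CPM with the knock-in and 47.9, 16.4 and 24.6 CPM in wild-type. Both knock-in IFN-γ libraries lay above all 5 untreated ones. In old IFN-γ males, Fcna was at 52.6, 44.3, 22.5, 23.5 and 23.1 CPM in knock-in and 23.6, 25.2, 24.3, 15.9 and 16.6 CPM in wild-type libraries. Fcna in old untreated males stood at 38.4, 6.63 and 45.04 CPM in knock-in libraries, against 46.5, 52.4 and 15.1 CPM in wild-type libraries. Untreated knock-in male 4 was the lowest library of the study. The knock-in young IFN-γ males had 52.4, 24.1 and 24.1 CPM of Fcna, and the wild-type ones had 25.7, 30.8, 27.6, 18.7 and 16.8 CPM. Among young untreated males, knock-in libraries held 68.8, 17.6 and 8.75 CPM of Fcna and wild-type libraries 42.9, 41.5 and 13.9 CPM. Fcna overlapped between the genotypes in all 8 combinations.

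The age label divided the set. Gata6, Serpinb2, Alox15 and F5 were lower in old libraries, Timd4 was higher, and the other 5 members were not called. Averaged over genotype, sex and treatment, Timd4 was 3.53 ± 0.36 (adjusted p = 8.52e-13) and Gata6 -1.76 ± 0.12 (adjusted p = 3.83e-19). Serpinb2 changed by -2.20 ± 0.33 (adjusted p = 3.82e-08), Alox15 by -1.47 ± 0.28 (adjusted p = 4.83e-06) and F5 by -1.09 ± 0.24 (adjusted p = 7.09e-05). The 5 of 10 members called stand against 70.8% of all tested genes called in this contrast, 31.9% higher and 38.9% lower, so that a share of this size is no feature of the set. The median change of the 10 members was -0.12, against -0.07 over all genes.

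Over all 63 libraries, Gata6 was 1.22 to 8.38 CPM (median 2.21) in old and 4.303 to 43.5 CPM (median 7.33) in young libraries. Timd4 was 5.99 to 410.3 CPM (median 32.8) in old and 0.312 to 67.4 CPM (median 2.52) in young libraries. The ranges overlapped for both genes, but within single combinations of genotype, sex and treatment old Gata6 was wholly below young in 8 of 8 and old Timd4 wholly above in 7 of 8. The share of all genes that separate by age in this way was not counted. Serpinb2 was 0.383 to 83.1 CPM (median 1.65) in old and 2.01 to 344 CPM (median 8.14) in young libraries.

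**Figure D2:**
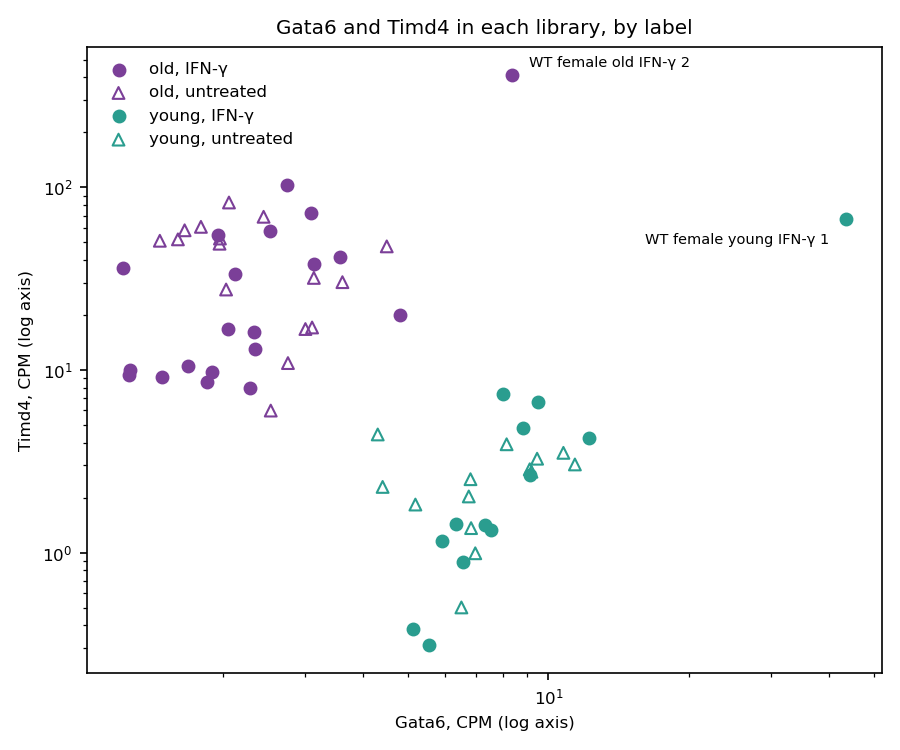
Timd4 against Gata6 in each of 63 libraries, both in CPM on log axes, coloured by age label with the treatment label as marker shape. Old libraries lie at low Gata6 and high Timd4 (medians 2.21 and 32.8 CPM) and young ones at high Gata6 and low Timd4 (medians 7.33 and 2.52 CPM).

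In single combinations, 26 of 80 member tests of age were called, against 40% of tests over all genes. The count was 29 without the 2 libraries that stand apart, against 42.3%, and 15 with near-identical libraries joined, against 28.5%, so that the share of members called was below that of all genes each time. Gata6 was lower in all 8, by -1.23 to -2.25, and Timd4 higher in all 8, by 2.20 to 4.54. Serpinb2 was lower in 5 of the 8, and Alox15 and F5 in IFN-γ females of either genotype. Several of these calls were lost when 1 library was left out. For Serpinb2 this was so in wild-type untreated females without old female 1, 2, 4 or 5 or young female 4 or 5 (adjusted p = 0.0506 to 0.137), in wild-type IFN-γ males without old male 1, 2 or 3 or young male 3 (adjusted p = 0.051 to 0.056), and in knock-in IFN-γ males without young male 4 (adjusted p = 0.0952). In knock-in IFN-γ females the call for Alox15 was lost without old female 4 or 5 or young female 1 or 2 (adjusted p = 0.0567 to 0.144), and that for F5 without young female 2 (adjusted p = 0.0563). Selp was -1.74 ± 0.54 (adjusted p = 0.00802) in wild-type IFN-γ females, the only combination in which it was called. Without the 2 libraries that stand apart its change there was 0.89 ± 0.55, in the other direction. Without wild-type young IFN-γ female 1 alone, Alox15, F5 and Serpinb2 also turned there, to 0.37, 1.06 and 1.23. With both libraries left out they were -1.11 ± 0.54 (adjusted p = 0.117), -0.77 ± 0.38 (adjusted p = 0.116) and -1.74 ± 0.54 (adjusted p = 0.0102). Some Timd4 calls rested on 1 library: in wild-type IFN-γ females the change was 0.76 (adjusted p = 0.465) without wild-type old IFN-γ female 2, and in knock-in IFN-γ females 2.78 (adjusted p = 0.149) without knock-in young IFN-γ female 1. It also lost its call in wild-type IFN-γ females without young female 2 or 5, and in knock-in IFN-γ males without young male 3 or 4.

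**Figure D3:**
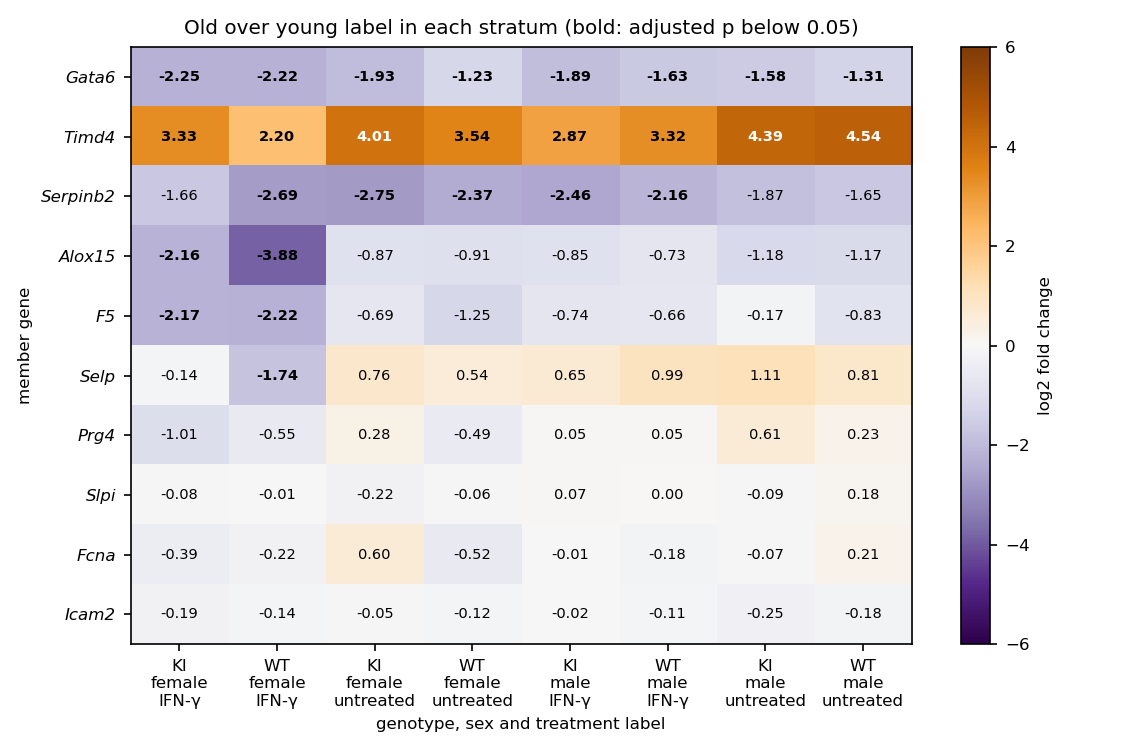
Log2 fold change of old over young libraries for the 10 genes (down the page) in each combination of genotype, sex and treatment (across), with calls at an adjusted p of 0.05 in bold. Gata6 is negative and Timd4 positive in all 8, Serpinb2 is negative in all 8, and Slpi and Icam2 stay near 0.

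The 5 calls by age, averaged over strata, were made again in both reduced sets. Without the 2 libraries the same 5 members were called and Selp was added, at 0.70 ± 0.17 (adjusted p = 3.37e-04), against 72.3% of genes. Wild-type young IFN-γ female 1, left out there, held the highest Selp level, 55.4 CPM, so this added call is only a description. With near-identical libraries joined the 5 were called again, against 64.6%, with Gata6 at -1.76, Timd4 at 3.54 and F5 at -1.06 ± 0.34 (adjusted p = 0.00654). Genes induced by IFN-γ rose with the age label too, 18 of 18 with a median change of 4.33. Mesothelial and fibroblast markers were lower in old libraries, 15 of 17 tested. Msln, a defining mesothelial marker, lay at 0.141 to 1.09 CPM in old and 0.0832 to 1.43 CPM in young libraries. Muc16 was at 0 in 33 of 63. The collagen genes Col1a2 and Col1a1 of this list were more abundant, with medians of 83.55 and 65.46 CPM over the 63 libraries. Dendritic cell markers were higher in old libraries for 5 of 7 tested, summing to 59.9 to 211 CPM in old and 3.22 to 44.5 CPM in young libraries. Most of that sum was Clec9a, at a median of 88.4 CPM over the 63 libraries, while the other 6 markers had medians of 0.129 to 2.57 CPM. Whether these moved the members was not tested.

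Other genes known from resident peritoneal macrophages moved with age mostly downwards. Of 24 such genes, 5 were higher and 16 lower in old libraries, with a median change of -0.55. Gas6, a bridge between dying cells and receptor kinases, was at -3.00 ± 0.10 (adjusted p = 3.95e-32) and the tetraspanin Cd9 at -1.47 ± 0.06 (adjusted p = 2.07e-29). F10, which encodes the clotting factor X that acts with factor V, was at 2.31 ± 0.13 (adjusted p = 4.85e-23). Bhlhe40, a transcription factor that supports proliferation of the large cells, was at -0.98 ± 0.06 (adjusted p = 2.46e-21). Of 14 genes of monocyte-derived and small peritoneal macrophages, 6 were higher and 6 lower.

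Genotype separated only 1 member. Slpi was lower in the knock-in, at -1.03 ± 0.22 (adjusted p = 0.014), in a contrast in which 1.16% of all genes were called and 0.673% were lower. Slpi was 30.7 to 139.9 CPM (median 66.96) in knock-in and 46.1 to 2195 CPM (median 116) in wild-type libraries. F5 was at -0.79 ± 0.24 (adjusted p = 0.0847), and Alox15, Serpinb2 and Prg4 at -0.61 ± 0.28, -0.61 ± 0.33 and -0.56 ± 0.27, none of them called. Gata6 was at -0.19 ± 0.12, Timd4 at 0.06 ± 0.31, Icam2 at -0.04 ± 0.10, Selp at -0.11 ± 0.22 and Fcna at -0.11 ± 0.20. The median of the 10 changes was -0.38, against -0.005 over all genes.

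The call for Slpi withstood removal of the 2 libraries, at -0.48 ± 0.10 (adjusted p = 0.00569) where 1.27% of genes were called, but the change was smaller. With near-identical libraries joined it was -1.02 ± 0.32 (adjusted p = 0.475) and not called, where 0.0392% of genes were. With the 2 libraries left out, Alox15 was at 0.10, Serpinb2 at 0.25, Prg4 at -0.01 and F5 at -0.16. The size of the negative values of these 4 genes thus rested on 2 wild-type libraries. Without knock-in old untreated males, whose labels conflict, F5 was called too, at -0.94 (adjusted p = 0.0267).

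By sex, age and treatment, 9 of 80 member tests of genotype were called, against 2.48% of tests over all genes, and all 9 were in IFN-γ females. In old IFN-γ females the knock-in was lower for 6 members, where 5.81% of genes were called. Serpinb2 changed there by -3.84 ± 0.85 (adjusted p = 0.00528) and Slpi by -3.29 ± 0.57 (adjusted p = 3.21e-04). Alox15 changed by -2.65 ± 0.70 (adjusted p = 0.0186), F5 by -2.64 ± 0.61 (adjusted p = 0.00756), Prg4 by -2.52 ± 0.68 (adjusted p = 0.0211) and Gata6 by -1.23 ± 0.30 (adjusted p = 0.0108). In young IFN-γ females, where 6.74% of genes were called, the knock-in was lower for Serpinb2 at -4.87 ± 1.28 (adjusted p = 0.0143), Alox15 at -4.36 ± 1.12 (adjusted p = 0.0124) and Slpi at -3.23 ± 0.86 (adjusted p = 0.0158).

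These strata hold the libraries that stand apart. Without the 2 wild-type ones the calls left were Gata6 at -0.90 ± 0.23 (adjusted p = 0.0351) and Slpi at -1.22 ± 0.24 (adjusted p = 0.00326), both in old IFN-γ females. These 2 of 80 tests stand against 2.59% of tests over all genes. Without knock-in old IFN-γ females 4 and 5 as well, no member was called in any stratum, and with near-identical libraries joined none was, against 0.0621% of tests over all genes. The separation of Slpi without overlap in both groups of IFN-γ females does not need wild-type old female 2 or young female 1, since the other wild-type libraries also lay above every knock-in one. Near-identical libraries limit it: joining leaves 1 knock-in library of young IFN-γ females from 2, and 3 of old ones from 5. The share of all genes that separate in this way was not counted. B cell markers were not called between the genotypes for any of 12 genes.

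**Figure D4:**
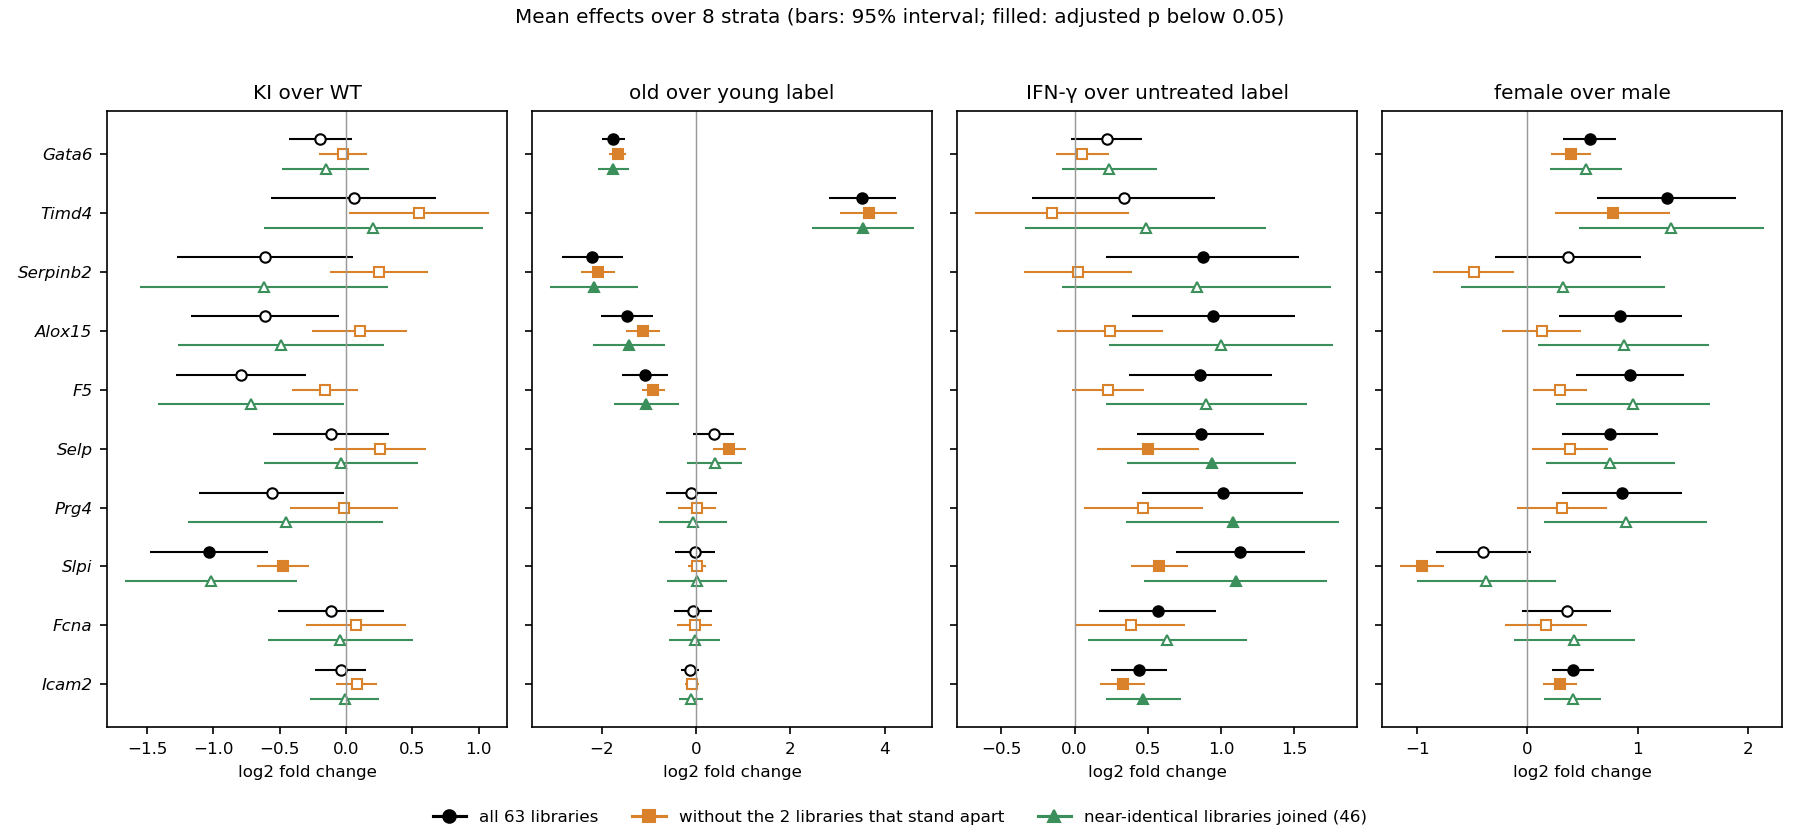
Mean log2 change of each gene by age, genotype, treatment and sex label, in 4 panels, with 95% intervals, for all 63 libraries, without the 2 libraries that stand apart, and with near-identical libraries joined into 46; filled points passed an adjusted p of 0.05. Age values for Gata6, Timd4 and Serpinb2 stay in place in all 3 fits, and most genotype, treatment and sex values move towards 0 without the 2 libraries.

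By treatment label, 8 of 10 members were higher in IFN-γ libraries, where 26% of all genes were called and 12% were higher. Slpi was at 1.13 ± 0.22 (adjusted p = 1.03e-04), Prg4 at 1.01 ± 0.27 (adjusted p = 0.0045) and Alox15 at 0.95 ± 0.28 (adjusted p = 0.0088). Selp was at 0.86 ± 0.22 (adjusted p = 0.00248), F5 at 0.86 ± 0.24 (adjusted p = 0.00672) and Icam2 at 0.44 ± 0.10 (adjusted p = 4.53e-04). Serpinb2 was at 0.88 ± 0.33 (adjusted p = 0.0428) and Fcna at 0.57 ± 0.20 (adjusted p = 0.0301), and Gata6 at 0.22 ± 0.12 (adjusted p = 0.176) and Timd4 at 0.34 ± 0.31 (adjusted p = 0.459) were not called. The median of the 10 changes was 0.86, against -0.01 over all genes. Slpi was 30.7 to 2195 CPM (median 123) in IFN-γ and 39.7 to 156 CPM (median 58.3) in untreated libraries.

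Most of this count rested on few libraries. Without the 2 that stand apart, 3 members were called, where 21.5% of genes were: Slpi at 0.58 ± 0.10 (adjusted p = 8.28e-06), Selp at 0.50 ± 0.17 (adjusted p = 0.0299) and Icam2 at 0.33 ± 0.08 (adjusted p = 0.00116). With near-identical libraries joined, 4 were called, where 10.8% of genes were: Prg4 at 1.08, Icam2 at 0.47, Selp at 0.94 and Slpi at 1.10. Without wild-type young IFN-γ female 1 alone, 4 were called, and the share of all genes was not counted there. With both left out, Slpi was 30.7 to 249 CPM (median 121) in IFN-γ and 39.7 to 156 CPM (median 58.3) in untreated libraries.

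In single combinations 19 of 80 member tests of treatment were called, against 8.59% of tests over all genes. Wild-type old females accounted for 9, where 20.1% of genes were called, and wild-type young females for 9, where 16.6% were. The remaining call was Fcna in knock-in young females at 1.61 ± 0.60 (adjusted p = 0.0455), where 21.9% were called. There were 6 calls of 80 once both libraries were left out, against 8.28% of tests over all genes: Icam2 at 0.70 and Slpi at 1.31 in wild-type old females, and Fcna at 1.63, Selp at 1.45, F5 at 0.93 and Icam2 at 0.63 in knock-in young females. No member was called in males in either fit. With near-identical libraries joined there were 11 calls of 80, against 2.27%.

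Markers of other cells moved with the treatment label. B cell markers were higher in IFN-γ libraries for 11 of 12 genes, with a median change of 3.06, and T and NK cell markers for 9 of 12. Mast cell markers were higher for 8 of 9, summing to 1.82 to 127 CPM in IFN-γ and 2.06 to 13.3 CPM in untreated libraries, and red cell markers for 5 of 5. Endothelial and platelet markers, whose cells also carry Selp, were higher for 0 and lower for 2 of 12 tested. Their levels differed widely: Pf4 and Vwf had medians of 86.42 and 68.48 CPM, while Emcn was at 0 in 61 libraries and Gp1bb in all 63. Of the 24 other resident macrophage genes, 13 were higher and 4 lower, with Aspa at 1.48 ± 0.16 (adjusted p = 2.90e-10), Cxcl13 at 1.76 ± 0.28 (adjusted p = 3.91e-06), Klf2 at 0.45 ± 0.08 (adjusted p = 1.52e-05) and Cd9 at -0.38 ± 0.06 (adjusted p = 1.48e-06). Aspa encodes aspartoacylase, Cxcl13 a chemokine for B cells and Klf2 a transcription factor of quiescent leukocytes. The part of other cells in the members' changes was not tested.

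By sex, 7 of 10 members were higher in females, where 13.6% of all genes were called and 7.13% were higher. Timd4 was at 1.26 ± 0.31 (adjusted p = 0.00495), F5 at 0.93 ± 0.24 (adjusted p = 0.00769) and Gata6 at 0.57 ± 0.12 (adjusted p = 0.0011). Prg4 was at 0.86 ± 0.27 (adjusted p = 0.0274), Alox15 at 0.84 ± 0.28 (adjusted p = 0.0349), Selp at 0.75 ± 0.22 (adjusted p = 0.0161) and Icam2 at 0.42 ± 0.10 (adjusted p = 0.00248). Both libraries that stand apart are female. Without them 4 were called, where 11.3% of genes were: Gata6 at 0.40 ± 0.09 (adjusted p = 0.00199), Timd4 at 0.77 ± 0.26 (adjusted p = 0.044) and Icam2 at 0.30 ± 0.08 (adjusted p = 0.0071) higher, and Slpi at -0.95 ± 0.10 (adjusted p = 6.21e-10) lower in females. Slpi was not called by sex with all 63 libraries. The 2 left out held its highest levels, 2195 and 1430 CPM, so its p-value without them is only a description. Knock-in old IFN-γ females 4 and 5 are counted as females by their label. They have neither the Xist level of the other females nor the Ddx3y level of males. Without this knock-in pair as well 6 were called, with F5 at 0.35 and Selp at 0.45 added, and without the pair alone 7. The shares of all genes called in these fits are not given here. With the 2 wild-type libraries left out, Slpi was 30.7 to 149.9 CPM (median 57.4) in females and 49.1 to 249 CPM (median 124) in males. With near-identical libraries joined no member was called, where 2.51% of genes were. B cell markers were higher in females for 10 of 12 genes, summing to 153 to 3114 CPM in females and 123 to 641 CPM in males, and their part in these results was not tested.

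The difference between the genotypes depended on the treatment label for 5 members, where 11.9% of all genes were called. The value here is the genotype change in IFN-γ libraries minus that in untreated ones, averaged over sex and age. Serpinb2 was at -2.99 ± 0.67 (adjusted p = 0.0037), Alox15 at -2.74 ± 0.57 (adjusted p = 0.00213) and F5 at -1.73 ± 0.49 (adjusted p = 0.0175). Slpi was at -1.72 ± 0.44 (adjusted p = 0.00928) and Gata6 at -1.08 ± 0.24 (adjusted p = 0.00365). Serpinb2 shows the pattern: the knock-in change was -3.84, -4.87, 0.00 and 0.30 in old females, young females, old males and young males with IFN-γ. In the same order without IFN-γ it was 0.54, 0.92, 0.93 and 1.15.

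Leaving out both libraries gave 4 calls, where 12% of genes were called: Alox15 at -1.31 ± 0.36 (adjusted p = 0.0137), Serpinb2 at -1.27 ± 0.37 (adjusted p = 0.0187), Gata6 at -0.73 ± 0.18 (adjusted p = 0.00648) and Slpi at -0.60 ± 0.19 (adjusted p = 0.0339). With near-identical libraries joined none was called, where 0.0741% of genes were. No member was called for the dependence of genotype on age or on sex in edgeR's test, where 0% of genes were called in each, nor for that of age on treatment, where 0.497% were. At an unadjusted p under 0.05 the counts were 0, 5 and 1 members. The share of all genes at that threshold was not counted, so these counts cannot be read as a feature of the set. DESeq2 called 1 member for the dependence of genotype on sex, Serpinb2 at -2.41 (adjusted p = 0.0456). The share of all genes that DESeq2 called there was not counted.

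Within an age label and without the 2 libraries, the members fell into partly separate patterns across libraries, described here by Pearson r of log2 CPM over 35 old and 26 young libraries. Libraries share groups, cell makeup and near-identical partners, so these values are descriptions. Prg4 followed Selp at 0.86 in old and 0.90 in young libraries and F5 at 0.85 and 0.91. Selp followed Fcna at 0.81 in old and 0.79 in young libraries and Timd4 at 0.72 and 0.78. Alox15 followed F5 at 0.75 in old and 0.75 in young libraries. Serpinb2 ran against Fcna, at -0.16 in old and -0.63 in young libraries. Gata6 and Timd4, which moved in opposite directions with age, had r of 0.16 in old and 0.51 in young libraries, against -0.68 when the 61 were pooled.

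Among 14659 other genes, the closest in pattern to Gata6 over the 63 libraries was Efnb2, which encodes ephrin-B2, with r of 0.95, followed by Net1 and Wdr6 at 0.94 and 0.93. Closest to Timd4 were Lpar1, a lysophosphatidic acid receptor, at 0.95 and then Ccl22 and Camkk1 at 0.93 each. Selp came closest to C4b, complement component 4B, at 0.92, and Prg4 to Saa3, an acute-phase serum amyloid gene, at 0.92. F5 came closest to Pard3b at 0.91, Serpinb2 to Cav1, caveolin-1, at 0.90 and Alox15 to Fam43a at 0.89. Fcna came closest to Peli3 at 0.86 and Slpi to Hp, haptoglobin, at 0.82. Without the 2 libraries the values were 0.95 for Efnb2 with Gata6, 0.94 for Lpar1 with Timd4 and 0.93 for C4b with Selp, but 0.73 for Fam43a with Alox15 and 0.64 for Hp with Slpi. For Gata6 and Timd4 the age label divides both genes of each pair, which these pooled values include.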

How the data were processed

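Polyadenylated RNA of 63 libraries was sequenced with a strand-directional kit, per the labels' protocols. Raw counts of reads by gene were deposited, and the authors also gave FPKM for the same genes. Per the submitters' processing notes, STAR 2.7.9a, GRCm39 and DESeq2 1.40.2 were used; which program counted reads, with what annotation and strand setting, is not given in the sources used here. FPKM as deposited equalled the deposited counts times 1 factor per gene and 1 per library (13172 genes, largest SD of the log ratio 2.9e-08), so FPKM served only to rank levels between genes. Symbols came from a GRCm38 annotation, which matched 52073 of 56748 identifiers, and 17641 genes had no count.

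Counts were tested with edgeR 4.0.16 in R 4.3.3: filterByExpr with the 16 groups (22147 genes, 99.992% of counts), TMM factors of 0.886 to 1.233, and the quasi-likelihood F test in 1 fit of all libraries with a coefficient per group (median residual degrees of freedom 47). Every adjusted p-value is Benjamini and Hochberg's over all genes of a contrast, called at 0.05, and mean effects weight the 8 strata equally. The pipeline was checked on simulated counts. Alternatives were DESeq2 1.42.0 size factors and test, limma 3.58.1 voom, no filter, replicate numbers as a block, and leaving out libraries or groups. Leaving out the libraries that stand apart, and joining near-identical libraries, were chosen after seeing the data. A pair of the same group was joined when its chi-square distance fell below 6.94 times the sampling noise, the closest pair from different groups, and the lowest distance of any pair was 3.38 times. The joined fit, with 46 libraries, tested 22949 genes. Members and gene lists were chosen with earlier results of these data known. All 10 members are named, with up to 4 genes of another list per comparison by smallest p, and the closest gene in pattern by Pearson r of log2 CPM among genes with a symbol, which for Icam2 is not reported here. Depth limits precision only for the lowest counts, and outcomes per library are CPM on TMM-scaled library sizes.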

Additional observations from a re-analysis of the deposited data

Results flagged for a closer look

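In 80 tests of a member within a group of 5 libraries, 11 had 1 library far from the others by Dixon's criterion. Chance gives about 1 in 20 for independent, normally distributed values. These tests use the same groups for genes that move together, so that rate is no yardstick for the count. Of these, 8 belonged to wild-type old IFN-γ female 2, which was above the other 4 libraries of its group. It held 93.8 CPM of Alox15 against 5.99 to 13.1, 83.1 CPM of Serpinb2 against 1.51 to 3.27, and 1479 CPM of Prg4 against 91.4 to 172.7. It held 410.3 CPM of Timd4 against 20 to 72.4, 28.0 CPM of Icam2 against 12.4 to 14.7, and 82.3 CPM of F5 against 4.34 to 8.31. It also held 2195 CPM of Slpi against 110.9 to 149.9 and 173.1 CPM of Fcna against 38.6 to 62.6. The group of wild-type young IFN-γ female 1 has 3 libraries and was not tested in this way. The other 3 were Icam2 at 10.6 CPM in knock-in old IFN-γ male 1, F5 at 5.36 CPM in wild-type old untreated female 4 and Selp at 5.69 CPM in wild-type old untreated female 1.

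The genotype change differed between the treatment labels for 5 members, by edgeR's test of the difference itself: Serpinb2 by -2.99, Alox15 by -2.74, F5 by -1.73, Slpi by -1.72 and Gata6 by -1.08, as the change in IFN-γ libraries minus that in untreated ones. None of the 5 was called with near-identical libraries joined.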

How the results depend on the processing

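The 5 members called by age, averaged over strata, were called again in every fit that left out 1 library, and the count was 5 to 6. In other settings the count by age in single strata was outside 1.5 times its value of 26 only with near-identical libraries joined, at 15. The single genotype call became 0 with libraries joined, 0 with libraries joined and the 2 apart left out, 0 under either replicate block, and 2 without knock-in old untreated males, where F5 was added at -0.94 (adjusted p = 0.0267 by edgeR). Genotype calls in single strata, 9 in all, became 2 without the 2 libraries, 0 without those and knock-in old IFN-γ females 4 and 5, 4 without that knock-in pair alone, 0 joined, 0 joined without the 2, and 2 with limma-voom. The 8 treatment calls became 3, 4, 4 and 2 in these settings (without 2, without 4, joined, joined without 2) and 4 with limma-voom. The 19 in single strata became 6, 11, 11 and 1, and 9 with limma-voom; over all genes 8.59% of such tests were called at first, 8.28% without the 2 and 2.27% joined. The 7 sex calls became 4 without the 2, 0 joined, 1 joined without the 2 and 3 with limma-voom. The 5 calls of genotype by treatment became 0, 0 and 2 (joined, joined without 2, limma-voom), and genotype by sex had 1 with DESeq2 against 0. In each case the cause was not tested. For limma-voom, DESeq2, the replicate blocks and fits without 1 library or 1 group, no share of all genes was counted. For the fits without 4 and joined without 2 it is not given here. Member counts in those settings therefore cannot be read as a feature of the set.

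Leaving out 1 library at a time gave 1 to 2 genotype calls and 5 to 12 in strata (lowest without wild-type old IFN-γ female 2), 24 to 27 by age in strata, 4 to 9 by treatment and 11 to 20 in strata (both lowest without wild-type young IFN-γ female 1), 4 to 7 by sex and 4 to 5 for genotype by treatment. Changes of sign: the age change in wild-type IFN-γ females lay between -5.36 and 0.37 for Alox15, -5.66 and 1.23 for Serpinb2, -4.04 and 1.06 for F5 and -2.27 and 1.04 for Selp, with each highest value without wild-type young IFN-γ female 1. That of Selp was 0.89 without the 2, 0.96 without the 4 and 0.92 joined without the 2, and the treatment change of Serpinb2 was -0.024 joined without the 2. Single-gene values were also compared in settings other than leaving out 1 library. Of these, 1560 kept their side of the threshold, 279 lost the call and 17 gained it. Another 4, called in the main fit or the other, changed sign. A value called in neither fit counts among the 1560 even where its sign changed, and the changes of sign above leave such values out.

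Replicate numbers were not taken to pair the libraries, since not every same-numbered pair had r over 0.1: 11 of 26 did across treatment, 17 of 26 across age, 13 of 25 across sex and 7 of 26 across genotype. Same-numbered pairs still had higher median r than differently numbered ones, 0.067 against -0.019 across treatment, 0.16 against -0.048 across age, 0.119 against -0.03 across sex and 0.045 against -0.014 across genotype. In old and young wild-type IFN-γ males all 5 same-numbered pairs had r of 0.218 to 0.434, but not every library was closest to its own number. As a random block across treatment or age (limma), calls were 0 and 0 for genotype, 2 and 2 in strata, 6 and 6 for age, 22 and 22 in strata, 4 and 3 for treatment, 11 and 7 in strata, 3 and 3 for sex, and 2 and 1 for genotype by treatment. With the number as a factor they were 1, 10, 6, 24, 7, 17, 7 and 5. None of these counts has a share of all genes beside it, since that was not counted in the blocked fits. No pair of libraries was within sampling noise, so the planned joining of such pairs gave no value, and DESeq2 gave no adjusted p for F5.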
